A study of Homo sapiens with 9 samples.

Results

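The genes described here are long noncoding RNAs of 2 kinds. The first are the host genes of small nucleolar RNAs (snoRNAs), which are named SNHG with a number or by names such as GAS5 and ZFAS1. The second are abundant long noncoding RNAs such as MALAT1, NEAT1, H19, NORAD and CYTOR. Their rows were taken by gene symbol alone, with no threshold on their levels, from a table of 58174 genes. The list of symbols itself was drawn up with earlier results of these data known. The rule found 38 rows, and 34 of them entered the tests. All 34 were at 1 TPM or more in each of the 9 libraries, so no member was tested because of a single group. SNHG18 and MEG3 were listed at 0 in all 9 libraries, and SNHG22 lay between 0 and 0.294 TPM. A second row that carries the symbol MALAT1 lay between 0.259 and 0.352 TPM. GENCODE 29 annotates that row as RF01871, a noncoding segment of 95 bases inside MALAT1, and every value given for MALAT1 below is that of the long gene (ENSG00000251562).

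RNA was sequenced from 9 libraries in 3 groups of 3, all labelled HepG2, a human line established from a liver tumour, and all grown in high-glucose medium with serum. The control group is labelled WT, and the protocol names it after the empty vector pLVX. The NFE2L1 line overexpresses NFE2L1, a transcription factor of the CNC family that sits in the endoplasmic reticulum membrane and activates proteasome genes once it is cut free. The NFE2L1DC line overexpresses a form that the protocol writes with a delta before the C. What that form lacks, the promoter of the transgenes and the number of clones in a line are not stated in the labels. They do not say either that the 3 libraries of a group are separate cultures, and the spread that enters each p-value may be technical. TPM, the unit of the deposited table, is an abundance corrected for length and scaled to the same sum in each library. The table holds no read counts, so the depth behind a value is unknown.

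The labelled line was checked against liver markers. Of 12 hepatocyte genes, 6 were at 0 in all 9 libraries, among them ALB, APOB, SERPINA1 and TTR, and the 12 summed to between 0.114 and 0.840 TPM. None of them entered the tests, so the defining markers of the labelled cell type were at or near 0. Of 6 fibroblast genes, COL1A2 was at 0 and COL3A1 lay between 61.3 and 114 TPM. The fibroblast sum ranged from 127 to 148 TPM in control, from 91.8 to 106 TPM with NFE2L1 and from 85.8 to 102 TPM with NFE2L1DC. COL3A1 fell in both lines and PDGFRB fell with NFE2L1, which makes 2 and 1 of the 4 fibroblast genes tested. Of all genes, 2.57% and 1.54% fell in the 2 lines. Without control replicate 3 the fibroblast counts were 2 and 2, beside 5.69% and 4.34% of all genes. The part of these changes in the results was not tested. In bulk RNA such as this, fewer cells of a type and less RNA per cell cannot be told apart. The 4 endothelial genes summed to at most 0.671 TPM and the 5 leukocyte genes to at most 0.331 TPM. NFE2L1 itself was at 104, 81.7 and 64.0 TPM in the controls, at 207, 181 and 354 TPM in the NFE2L1 line and at 445, 427 and 472 TPM in the NFE2L1DC line, so every library of both lines was above every control. Control replicate 3 stood apart from the other controls, and counts and calls below that depend on it are given with and without it.

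A snoRNA is a short nuclear RNA that guides the methylation or the pseudouridylation of other RNAs, mainly ribosomal RNA. Most human snoRNAs are cut out of introns, and in a noncoding host the spliced exons are a by-product that is often exported, bound by ribosomes and removed by nonsense-mediated decay. Many hosts start with the oligopyrimidine tract that also marks ribosomal protein genes, which ties them to growth signals. MALAT1 and NEAT1 stay in the nucleus, where they sit in nuclear speckles and build paraspeckles. H19 and MEG3 are imprinted RNAs of fetal tissues, and H19 is often expressed again in liver tumours.

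Ordered by mean TPM, which is comparable between genes because it is per length, H19 and GAS5 were the most abundant members, at means of 371 and 335 TPM over all 9 libraries. SNHG6, SNHG7 and SNHG1 followed at 179, 148 and 134 TPM. DANCR and ZFAS1 were also at 100 TPM or more, which made 7 such members, with 19 between 10 and 100 TPM and 8 under 10 TPM. H19 exceeded GAS5 in all 3 controls, but their ranges overlapped in both overexpressing lines. SNHG6 lay above SNHG7 in every library of each group, while the ranges of SNHG7 and SNHG1 overlapped with NFE2L1 and with NFE2L1DC. MALAT1 was low for a gene known as abundant, at a mean of 6.67 ± 6.36 TPM in control (SD, n = 3, as for every error of a mean below). The members summed to 2146 ± 27.4 TPM in control, 2223 ± 56.7 TPM with NFE2L1 and 2119 ± 38.8 TPM with NFE2L1DC, and the 3 ranges overlapped between control and each line.

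**Figure D1:**
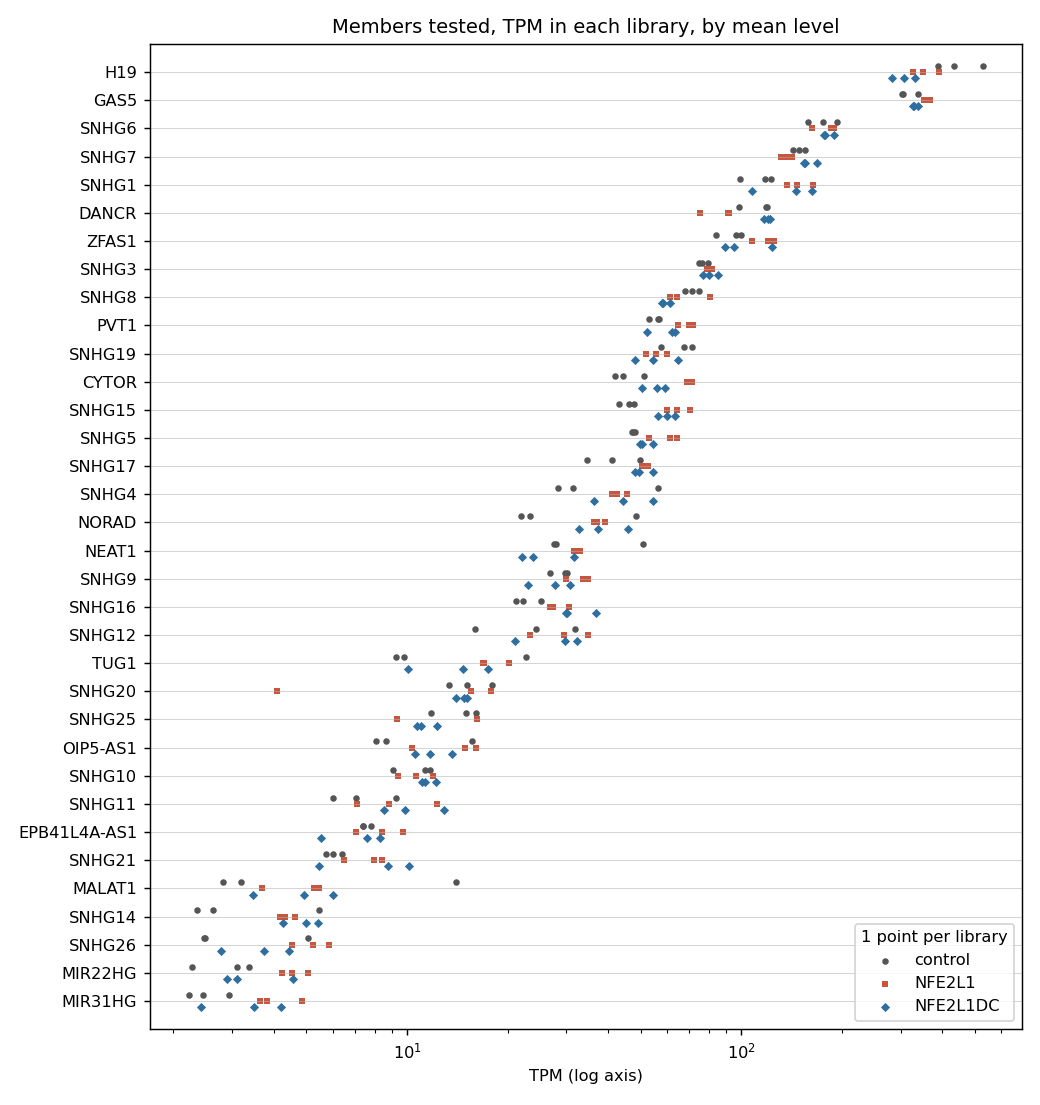
TPM of the 34 tested members in each of the 9 libraries on a log axis, ordered by mean, with 1 point per library and a mark per group. H19 and GAS5 lie highest, MIR22HG and MIR31HG lowest, and the control point of MALAT1 at 14.0 TPM and the NFE2L1 point of SNHG20 at 4.09 TPM stand off from the rest of their groups.

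The NFE2L1 line was compared with control first. CYTOR and SNHG15 rose, and no member fell. A gene is said to rise or fall where its adjusted p is under 0.05 in limma's moderated test of log2(TPM + 1), with Benjamini-Hochberg adjustment over all 14118 genes tested. The 2 members make 5.88% of 34, while 10.4% of all genes tested passed the same threshold, 7.83% higher and 2.57% lower. At an unadjusted p under 0.05, 14 of the 34 members passed (41.2%) beside 30.4% of all genes. The median log2 change of the members was 0.29, with a range from -0.49 to 0.60, and that of all genes was 0.17. Of the 34 changes 24 were above 0, 70.6% beside 68.7% of all genes. The groups did not overlap for 12 members that were higher with NFE2L1, 35.3% beside 22.6% of all genes, and for 2 that were lower, DANCR and SNHG7, 5.88% beside 9.53%. Both directions together made 41.2% of the members beside 32.1% of all genes.

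CYTOR, the cytoskeleton regulator RNA also called LINC00152 (ENSG00000222041, GRCh38 chromosome 2, 87454781 to 87636740, plus strand), is a cytoplasmic RNA described in many tumours. It was at 41.9, 51.2 and 44.3 TPM in the controls, at 68.8, 71.1 and 68.9 TPM in the NFE2L1 line and at 50.4, 59.1 and 56.0 TPM in the NFE2L1DC line. The NFE2L1 libraries were all above every control, while the lowest NFE2L1DC library lay under the highest control. The mean went from 45.8 ± 4.85 to 69.6 ± 1.33 TPM with NFE2L1, a fold of 1.52 and a log2 change of 0.60 (SE 0.10, 95% interval 0.38 to 0.82, limma adjusted p = 0.00708). With NFE2L1DC the log2 change was 0.26 (SE 0.10, adjusted p = 0.165). CYTOR kept its call in the NFE2L1 line when any 1 of the 9 libraries was left out, with changes between 0.54 and 0.68. It lost it under median-of-ratios scaling (0.42, adjusted p = 0.104), which takes the median of all genes in this comparison from 0.17 to 0.02.

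CYTOR has a near-identical copy on the same chromosome, MIR4435-2HG (ENSG00000172965, GRCh38 chromosome 2, 111036776 to 111523376), and reads could be split between them in ways the files do not show. The best alignment of their transcripts covered 2254 bases at 99.2% identity. MIR4435-2HG was at 58.1 ± 1.81 TPM in control, 85.5 ± 5.39 TPM with NFE2L1 and 80.5 ± 4.76 TPM with NFE2L1DC. It rose in both lines, by log2 changes of 0.55 (SE 0.08, limma adjusted p = 0.00421) and 0.46 (SE 0.08, adjusted p = 0.0206). CYTOR and its copy together summed to 104 ± 5.61 TPM in control, 155 ± 6.36 TPM with NFE2L1 and 136 ± 8.32 TPM with NFE2L1DC. The values of CYTOR alone are therefore uncertain, whereas the sum was higher in every library of both lines than in any control.

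The region around the RefSeq start of CYTOR, from 250 bases before to 50 bases after it, is shown because it was the only member window with a match to TGANTCA, the site bound by AP-1 factors. Such a match is present in 7.71% of the 35116 RefSeq promoter windows of the same length. It lies at chr2:87455177-87455476 (GRCh38.p14, plus strand), and the capitals mark 2 copies of TGAGTCA that begin 19 and 9 bases before the start. The match is a description of the letters and not a measured binding site.
CYTOR: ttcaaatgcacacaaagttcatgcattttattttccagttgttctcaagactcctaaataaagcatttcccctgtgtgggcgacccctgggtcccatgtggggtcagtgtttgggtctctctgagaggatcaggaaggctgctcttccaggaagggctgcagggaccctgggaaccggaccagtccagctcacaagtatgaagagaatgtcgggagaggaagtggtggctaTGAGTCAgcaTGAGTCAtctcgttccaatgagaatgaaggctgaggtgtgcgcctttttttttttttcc

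SNHG15 (ENSG00000232956, GRCh38 chromosome 7, 44983023 to 44986961, minus strand) is a short-lived snoRNA host. Its values were 43.2, 47.7 and 46.2 TPM in the controls, 60.1, 64.2 and 70.1 TPM with NFE2L1, and 63.6, 56.3 and 60.0 TPM with NFE2L1DC. All 6 overexpressing libraries were above all 3 controls. The log2 change was 0.49 with NFE2L1 (SE 0.09, 95% interval 0.29 to 0.70, limma adjusted p = 0.0113). With NFE2L1DC it was 0.38 (SE 0.09, adjusted p = 0.0537), which did not pass. Without control replicate 3 the NFE2L1DC change was 0.39 and passed (adjusted p = 0.0241). The NFE2L1 call was lost without NFE2L1 replicate 3 (0.44, adjusted p = 0.0562) and under median-of-ratios scaling (0.32, adjusted p = 0.124).

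The snoRNA inside SNHG15 is SNORA9, of the H/ACA class, at chr7:44985378-44985510 (GRCh38, minus strand). Its GENCODE 29 sequence is shown because its row was near 0 while its host was among the members that rose: it lay between 0.0082 and 0.264 TPM and under the filter on low values. The capitals mark the ACA box near the end of the RNA.
SNORA9: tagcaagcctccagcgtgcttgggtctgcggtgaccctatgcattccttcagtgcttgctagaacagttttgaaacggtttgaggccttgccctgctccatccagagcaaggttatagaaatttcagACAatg

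**Figure D2:**
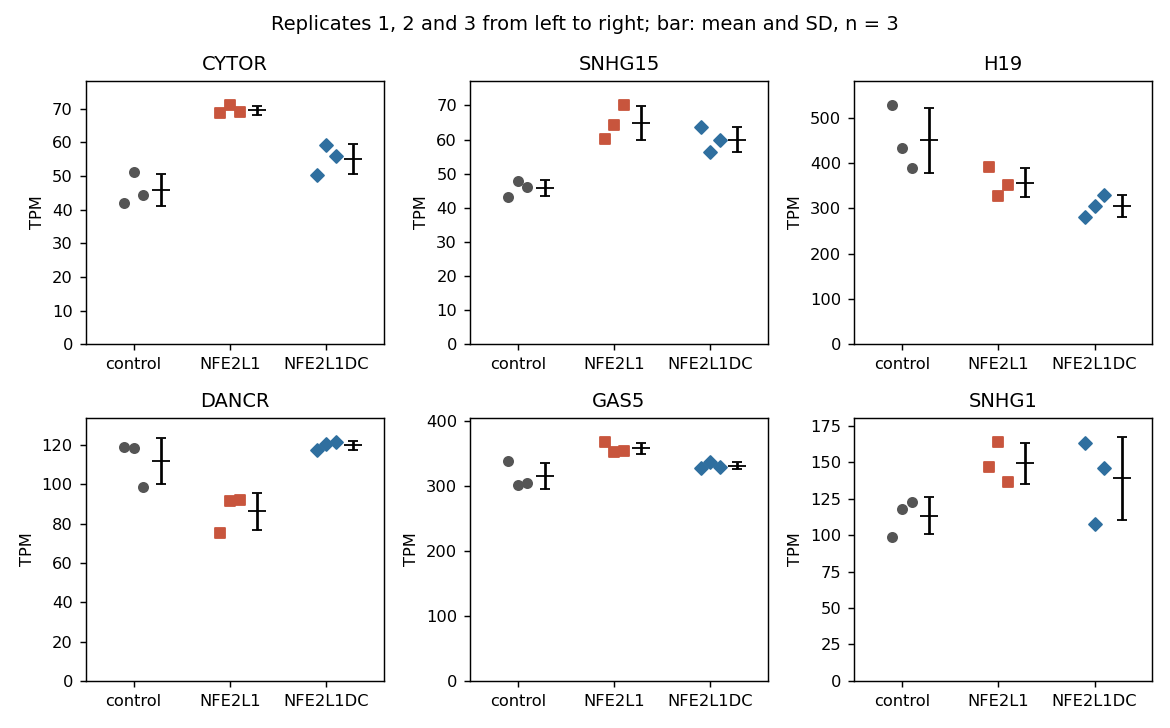
TPM of CYTOR, SNHG15, H19, DANCR, GAS5 and SNHG1 in each library, from 0 upward, with the mean and SD over 3 libraries beside the points of each group. For CYTOR and SNHG15 the NFE2L1 points lie above all controls, for H19 the NFE2L1DC points lie below all controls, and for DANCR the NFE2L1 points lie below those of both other groups.

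Against the control libraries used above, which both lines share, H19 fell in the NFE2L1DC line and no member rose. That 1 member is 2.94% of the 34 members, while 3.61% of all genes tested passed, 2.06% higher and 1.54% lower. At an unadjusted p under 0.05, 6 members passed, 17.6% beside 21.7% of all genes. The median log2 change was 0.11, with a range from -0.55 to 0.48, and that of all genes was 0.12. Of the members 25 had a change above 0, 73.5% beside 65.5% of all genes, and the number was 18 under median-of-ratios scaling. The groups did not overlap for SNHG15, SNHG16 and SNHG5, which were higher (8.82% beside 13.7%), and for H19 and SNHG8, which were lower (5.88% beside 8.98%), 14.7% beside 22.7% in all.

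H19 (ENSG00000130600, GRCh38 chromosome 11, 1995176 to 2001470, minus strand) is an imprinted RNA expressed from the maternal allele and the precursor of the microRNA annotated inside it as MIR675. It was at 529, 434 and 388 TPM in the controls, at 391, 328 and 351 TPM with NFE2L1 and at 282, 306 and 330 TPM with NFE2L1DC. The NFE2L1DC libraries were all below every control, and the highest NFE2L1 library was just above the lowest control. The mean went from 450 ± 71.6 to 306 ± 24.2 TPM with NFE2L1DC, a fold of 0.680 and a log2 change of -0.55 (SE 0.12, 95% interval -0.81 to -0.28, limma adjusted p = 0.0417). With NFE2L1 it was 357 ± 32.3 TPM, a log2 change of -0.33 (SE 0.12, adjusted p = 0.103). The direct difference between the lines was 0.22 (95% interval -0.05 to 0.48, adjusted p = 0.709).

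The H19 call was close to the threshold. It was lost when any library other than control replicate 3 was left out, at changes between -0.42 and -0.60 and adjusted p between 0.0599 and 0.146. Without control replicate 3 it fell in both lines, by log2 changes of -0.43 with NFE2L1 (adjusted p = 0.0199) and -0.65 with NFE2L1DC (adjusted p = 0.00748). The 3 controls spread more widely than the libraries of either line, with control replicate 1 highest. H19 made up between 13.1% (an NFE2L1DC library) and 24.4% (control replicate 1) of the members' summed TPM.

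The same window around the start of H19 (chr11:2001217-2001516, GRCh38.p14, minus strand) is shown beside that of CYTOR, since the calls of both genes differ in direction. None of the 5 letter motifs searched occurs in it, so it has no capitals, which says only that those letters are not in this window.
H19: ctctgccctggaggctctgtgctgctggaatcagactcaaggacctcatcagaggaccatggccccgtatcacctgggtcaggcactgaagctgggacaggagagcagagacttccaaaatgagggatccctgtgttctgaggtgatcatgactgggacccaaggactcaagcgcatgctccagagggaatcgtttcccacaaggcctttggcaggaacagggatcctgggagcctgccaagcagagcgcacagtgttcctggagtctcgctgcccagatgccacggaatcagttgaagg

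Because H19 and GAS5 are both abundant and were measured in the same libraries, their ratio was taken as well. H19 divided by GAS5 was 1.42 ± 0.14 in control, 0.996 ± 0.066 with NFE2L1 and 0.925 ± 0.073 with NFE2L1DC. H19 was the higher of the pair in 3, 1 and 1 libraries of these groups. A ratio within a library does not depend on its scaling, but it does not show which of the genes moved.

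Among 10 imprinted growth genes, 6 were tested. GRB10, an adaptor that restrains insulin and growth factor receptors, rose in both lines, from 6.64 ± 0.635 TPM to 12.5 ± 0.894 and 12.4 ± 1.67 TPM (log2 changes 0.82 and 0.80, limma adjusted p = 0.00762 and 0.0181). CDKN1C, a maternally expressed inhibitor of cyclin-dependent kinases from the same imprinted chromosome region as H19, fell from 33.4 ± 5.38 TPM to 17.2 ± 1.66 and 17.4 ± 1.65 TPM (-0.91 and -0.89, adjusted p = 0.00458 and 0.0123). So 1 of the 6 rose and 1 fell in each line. Of all genes, 7.83% and 2.06% rose in the 2 lines, and 2.57% and 1.54% fell. Without control replicate 3, 2 of the 6 rose and 1 fell in each line. Of all genes, 30.1% and 20.1% then rose, and 5.69% and 4.34% fell. The list's median changes were 0.29 and 0.16 beside 0.17 and 0.12 for all genes. IGF2, the paternally expressed neighbour of H19, was between means of 0.0732 and 0.103 TPM. MEG3 was at 0, and DLK1, the coding gene nearest to it, was at a mean of at most 0.0612 TPM.

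DANCR, an RNA known for holding progenitor cells undifferentiated and the host of SNORA26, was the most abundant member after H19 to lie lower with NFE2L1 by an interval that did not hold 0. It was at 119, 119 and 98.5 TPM in the controls, at 75.3, 91.4 and 92.0 TPM with NFE2L1, and at 117, 120 and 122 TPM with NFE2L1DC. All NFE2L1 libraries were below all libraries of both other groups. The log2 change was -0.37 against control (SE 0.10, limma adjusted p = 0.0521) and -0.48 against NFE2L1DC (SE 0.10, adjusted p = 0.123), and neither passed. Without control replicate 3 both passed, at -0.46 (adjusted p = 0.00794) and -0.48 (adjusted p = 0.0474). With NFE2L1DC the change from control was 0.10 (adjusted p = 0.585). SNORA26 was at 9.44 ± 0.698, 8.92 ± 2.01 and 8.13 ± 2.46 TPM in the 3 groups and did not pass either test.

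None of the most abundant snoRNA hosts was called. GAS5, a growth-arrest transcript that carries many snoRNAs (ENSG00000234741, GRCh38 chromosome 1, 173863900 to 173868882, minus strand), was at 339, 302 and 304 TPM in the controls. It was at 368, 351 and 353 TPM with NFE2L1 and at 327, 337 and 329 TPM with NFE2L1DC. The NFE2L1 libraries lay above all controls by a log2 change of 0.18 that did not pass (SE 0.06, limma adjusted p = 0.0953). With NFE2L1DC the change was 0.07 (adjusted p = 0.519) and turned to -0.04 under median-of-ratios scaling. GENCODE 29 lists no snoRNA gene inside GAS5, so its snoRNAs have no value here.

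SNHG1 (ENSG00000255717, GRCh38 chromosome 11, 62851988 to 62855914, minus strand) hosts 7 annotated snoRNAs. It was at 99.0, 118 and 123 TPM in the controls, 147, 164 and 137 TPM with NFE2L1, and 163, 108 and 146 TPM with NFE2L1DC. NFE2L1 libraries were above all controls, whereas with NFE2L1DC replicates 1 and 3 were above all controls and replicate 2 lay inside their range. The log2 changes of 0.40 and 0.28 did not pass (SE 0.15, adjusted p = 0.119 and 0.316). ZFAS1, the host of SNORD12, SNORD12B and SNORD12C, likewise did not overlap with control in the NFE2L1 line, at 93.6 ± 8.41 and 118 ± 9.28 TPM (0.33, adjusted p = 0.124). SNHG6, SNHG3 and SNHG7 had log2 changes of 0.03, 0.05 and -0.12 with NFE2L1 and of 0.05, 0.07 and 0.09 with NFE2L1DC. None of them passed the test, and each of these changes lay within an interval that held 0.

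With all 9 libraries SNORD26, one of the snoRNAs inside SNHG1, was the only called snoRNA row that lies in a member. It was at 12.7, 10.6 and 13.5 TPM in the controls, 37.0, 24.6 and 20.5 TPM with NFE2L1, and 23.5, 12.8 and 20.1 TPM with NFE2L1DC. It rose with NFE2L1 by a log2 change of 1.06 (limma adjusted p = 0.0310), and with NFE2L1DC the 0.54 did not pass (adjusted p = 0.250). Its neighbour SNORD30 in the same host, at 9.40 ± 3.63 TPM in control and 17.2 ± 5.24 TPM with NFE2L1, did not pass (0.84, adjusted p = 0.104). The other rows of this host, SNORD25, SNORD27 and SNORD28 among them, included 3 that stayed at or below 0.325 TPM in all libraries. SNORD87, inside SNHG6, did not pass with all libraries (0.85 and 0.57, limma adjusted p = 0.0725 and 0.257). Without control replicate 3 it passed in both lines (1.17 and 0.88, limma adjusted p = 0.00269 and 0.0131). The sequence of SNORD26 (GENCODE 29, chr11:62855292-62855366, GRCh38, minus strand) is shown as the snoRNA that was called, and the capitals mark the CTGA of its D box.
SNORD26: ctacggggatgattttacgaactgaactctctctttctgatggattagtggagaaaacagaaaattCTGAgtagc

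Of the 38 rows, 26 have an annotated snoRNA inside them on the same strand, and 24 of these were tested. They hold 137 annotated entries, 84 of them in SNHG14, the imprinted transcript that runs antisense to UBE3A. Entries annotated as scaRNA are counted among them. Some entries cover nearly the same bases, such as SNORA17A, which rounds to 0 TPM, and RF00560, at 0.314 to 17.5 TPM. The counts are therefore of entries and not of distinct snoRNAs, and reads may be split between such entries. Only 31 of the 137 reached 1 TPM in any library, in 19 hosts. The highest was the row RF00099 in SNHG1, at up to 38.0 TPM, followed by SNORD26 and SNORD104 in SNHG25. Of all 851 snoRNA rows, 104 were tested. With NFE2L1, 5 rose (SNORD101, SNORD26, SNORD62B, SNORD14A and SNORD14D) and SNORD36C fell, and with NFE2L1DC SNORD62B and SNORA63 rose and none fell. SNORD36C was at 7.91, 10.2 and 10.9 TPM in the controls, at most 0.721 TPM with NFE2L1, and 0.820, 13.7 and 0.590 TPM with NFE2L1DC. It reached 1 TPM in only 4 libraries, so it was tested largely because of the controls, where it was high. Other snoRNA rows switched within a group, such as SNORD36A at 0.078, 22.6 and 34.9 TPM in the controls. Of all genes, 7.83% rose and 2.57% fell with NFE2L1, and 2.06% rose and 1.54% fell with NFE2L1DC. When control replicate 3 was left out, 15 and 8 of the 104 rose, and 1 and 0 fell. Of all genes, 30.1% and 20.1% then rose, and 5.69% and 4.34% fell. The snoRNA rows' median changes were 0.26 and 0.24 beside 0.17 and 0.12 for all genes. Libraries that select for long or polyadenylated RNA measure mature snoRNAs poorly, and the labels do not name the selection used for these.

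The remaining hosts with a mean above 20 TPM included several that did not overlap with control. SNHG5 was at 47.6 ± 0.509 TPM in control and 59.6 ± 5.76 TPM with NFE2L1 (0.31, limma adjusted p = 0.0586). SNHG17 was at 41.8 ± 7.61 and 51.5 ± 0.985 TPM (0.31, adjusted p = 0.136). SNHG16 was at 22.8 ± 2.06 TPM in control, 28.3 ± 2.00 TPM with NFE2L1 (0.30, adjusted p = 0.127) and 32.3 ± 3.88 TPM with NFE2L1DC (0.48, adjusted p = 0.0572). For SNHG16 all 6 overexpressing libraries were above the controls, and without control replicate 3 it passed in both lines, at 0.37 (adjusted p = 0.0404) and 0.55 (adjusted p = 0.0137). SNHG8 was at 71.4 ± 3.51 TPM in control and 59.1 ± 1.75 TPM with NFE2L1DC, without overlap and without passing (-0.27, adjusted p = 0.193). SNHG19 was at 65.4 ± 7.16, 55.8 ± 4.07 and 55.8 ± 8.40 TPM and SNHG9 at 28.8 ± 1.82, 32.7 ± 2.50 and 27.2 ± 3.96 TPM in the 3 groups, and neither passed a test.

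PVT1, which lies next to MYC and hosts 4 annotated microRNAs, was at 55.4 ± 2.04 TPM in control, 68.8 ± 3.46 TPM with NFE2L1 and 59.3 ± 6.10 TPM with NFE2L1DC. All NFE2L1 libraries were above all libraries of both other groups. The log2 change with NFE2L1 was 0.30 (SE 0.09, limma adjusted p = 0.0696) and passed without control replicate 3 (0.32, adjusted p = 0.0399). MYC was at 20.8 ± 2.08, 28.9 ± 3.03 and 30.3 ± 6.63 TPM in the 3 groups and did not pass either (0.45 and 0.51, adjusted p = 0.0927 and 0.110). It passed in both lines without control replicate 3 (0.53 and 0.58, adjusted p = 0.0379 and 0.0370). The microRNA hosts MIR22HG and MIR31HG had the highest folds of the NFE2L1 comparison at low levels. MIR22HG went from 2.91 ± 0.566 to 4.60 ± 0.410 TPM (fold 1.58, log2 change 0.53, adjusted p = 0.0962). MIR31HG went from 2.54 ± 0.362 to 4.10 ± 0.659 TPM (fold 1.61, log2 change 0.52, adjusted p = 0.105). The groups did not overlap for either, and the log2(TPM + 1) scale understates such low values.

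**Figure D3:**
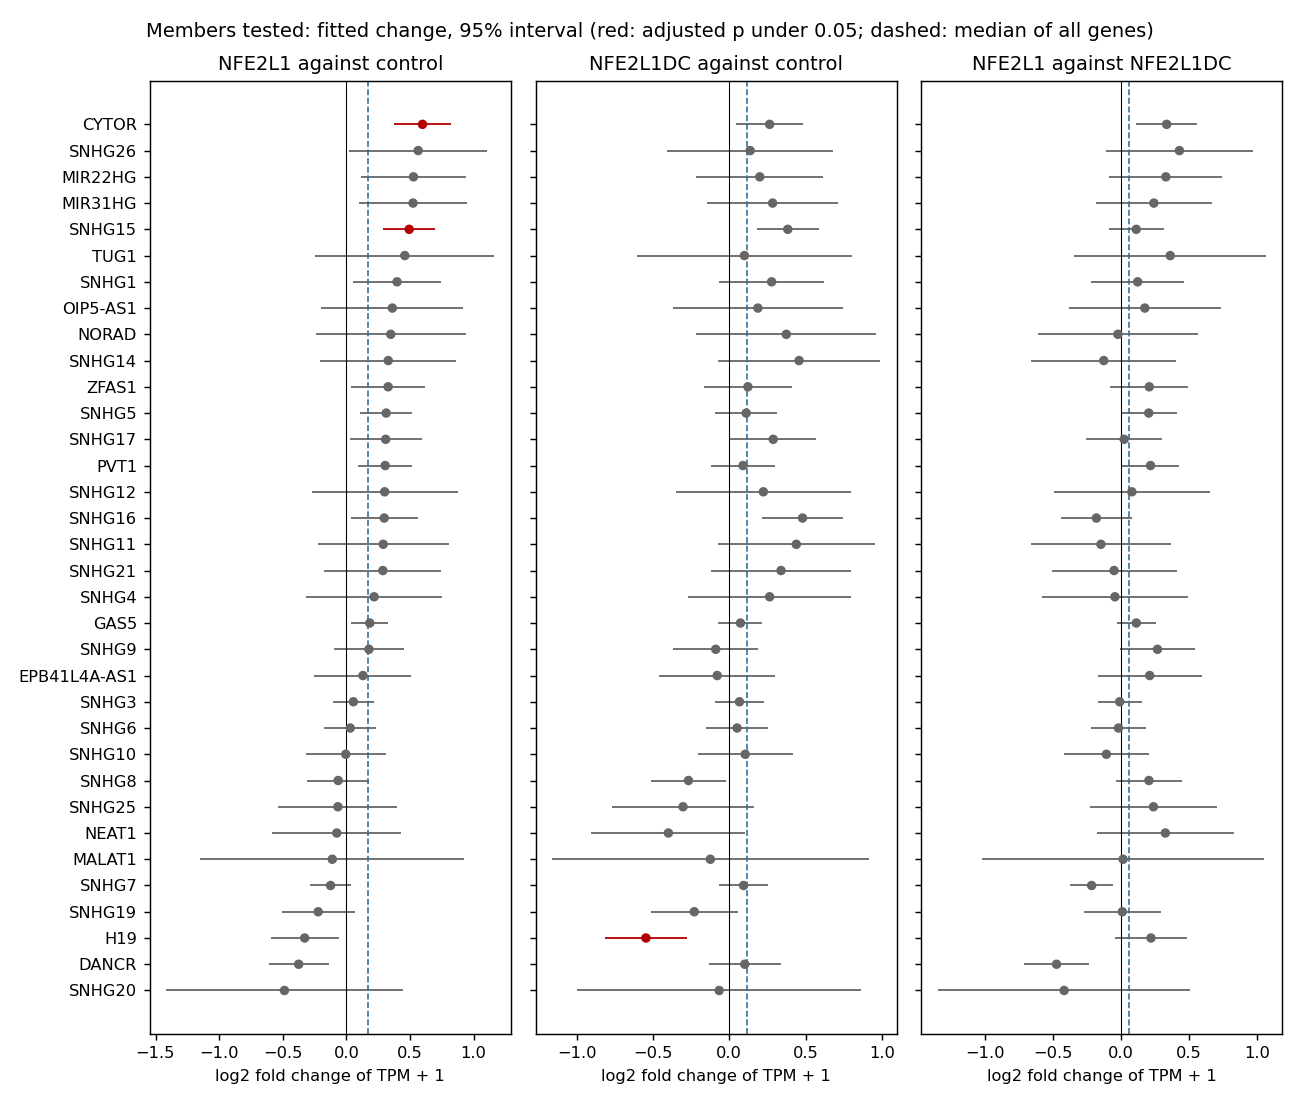
Fitted log2 changes of TPM + 1 with their 95% intervals for the 34 tested members in the 3 comparisons, ordered by the change with NFE2L1. Red marks the 3 calls (CYTOR and SNHG15 with NFE2L1, H19 with NFE2L1DC), and the dashed line is the median change of all genes tested.

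The 2 lines were then compared directly. No member passed the limma test, while 0.793% of all genes did, 0.715% higher with NFE2L1 and 0.0779% lower. Of the changes 22 were above 0, 64.7% of the members beside 63.1% of all genes. At an unadjusted p under 0.05 there were 4 members, CYTOR and PVT1 higher with NFE2L1 and DANCR and SNHG7 lower, 11.8% beside 8.19% of all genes. CYTOR was higher by 0.33 (95% interval 0.11 to 0.56, adjusted p = 0.306) and PVT1 by 0.22 (0.00 to 0.43, adjusted p = 0.601). SNHG7 had means of 149 ± 6.44 TPM (control), 137 ± 5.01 TPM (NFE2L1) and 159 ± 7.88 TPM (NFE2L1DC), a direct difference of -0.22 (-0.38 to -0.06, adjusted p = 0.378). The groups did not overlap for 5 members that were higher with NFE2L1, CYTOR, GAS5, NEAT1, PVT1 and SNHG26 (14.7% beside 12.4%), and for DANCR and SNHG7, which were lower (5.88% beside 5.55%), 20.6% beside 18% in all. SNHG15 differed by 0.11 (-0.09 to 0.31). The median arm of the 34 intervals, which are not adjusted for the number of genes, was 0.327 to either side. It is not a limit of detection for the adjusted test. The larger differences of DANCR (-0.48) and CYTOR (0.33) did not pass either.

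MALAT1 was the member in which control replicate 3 lay farthest from the other controls, and NEAT1, the other nuclear RNA, was also among those it touched. MALAT1 (ENSG00000251562, GRCh38 chromosome 11, 65497688 to 65506516, plus strand) was at 2.82, 3.18 and 14.0 TPM in the controls, at 5.28, 3.69 and 5.47 TPM with NFE2L1 and at 6.01, 3.46 and 4.91 TPM with NFE2L1DC. Control replicate 3 alone was above all other libraries, and the other controls were below all of them. NEAT1 (ENSG00000245532, GRCh38 chromosome 11, 65422774 to 65445540, plus strand) was at 27.98, 27.5 and 51.0 TPM in the controls, at 32.2, 31.7 and 32.9 TPM with NFE2L1, and at 31.5, 22.1 and 23.9 TPM with NFE2L1DC. Here too control replicate 3 was the highest library, while the NFE2L1 values lay close together. The changes of MALAT1 were -0.11 and -0.12 with all libraries, and 0.53 and 0.51 without control replicate 3. Those of NEAT1 were -0.08 and -0.40, and 0.21 and -0.11 without it. None of these 8 values passed the test.

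Control replicate 3 was at least 1.5 times the mean of the other controls, on the log2(TPM + 1) scale, for 9 of the 34 members, and below it by that much for none. These were MALAT1, TUG1, NORAD, SNHG4, SNHG14, NEAT1, OIP5-AS1, SNHG26 and SNHG12, 26.5% of the members beside 24.7% of all genes. The ratio of TPM was 4.67 for MALAT1, 2.39 for TUG1, 2.19 for SNHG14 and 2.14 for NORAD. For H19 it was 0.807 and for SNHG17 0.763. The median GC content of the annotated transcripts was 42.2% for the 9 and 51.1% for the other members. Across the 34 members the deviation of control replicate 3 ran against GC content with a Spearman's rho of -0.539, and across 14085 genes with -0.628. Both are descriptions across genes measured in the same 3 libraries, and the part of GC content in the results was not tested beyond the correction for it in the fit.

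**Figure D4:**
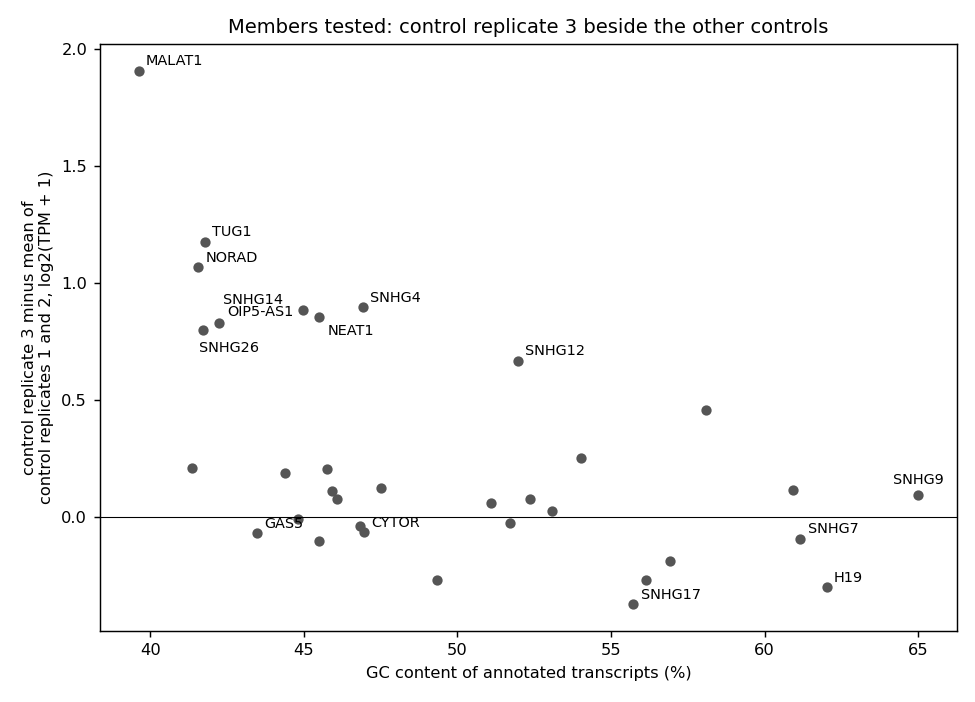
Deviation of control replicate 3 from the mean of control replicates 1 and 2, in log2(TPM + 1), against the GC content of the annotated transcripts, 1 point per tested member. MALAT1, TUG1 and NORAD lie highest, at a GC content of 39.6%, 41.8% and 41.6%, while H19, at 62.0%, lies below 0.

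NORAD, a cytoplasmic RNA induced by DNA damage, was at 21.9, 23.3 and 48.5 TPM in the controls, at 39.1, 37.1 and 36.2 TPM with NFE2L1 and at 45.7, 37.2 and 32.6 TPM with NFE2L1DC. All 6 overexpressing libraries were above control replicates 1 and 2 and below control replicate 3. Its changes of 0.35 and 0.37 did not pass (limma adjusted p = 0.384 and 0.427). Without control replicate 3 they were 0.70 and 0.73 and both passed (adjusted p = 0.00567 and 0.00867). For TUG1, OIP5-AS1, SNHG14, SNHG26 and SNHG4 as well, control replicates 1 and 2 were below all 6 overexpressing libraries. TUG1, a nuclear and cytoplasmic RNA first described in the retina, was at 9.81, 9.24 and 22.8 TPM in the controls and between 16.9 and 20.2 TPM with NFE2L1, with a change of 0.46 (adjusted p = 0.340) and of 0.85 without control replicate 3 (adjusted p = 0.0131). OIP5-AS1, an RNA that binds ELAVL1 and directs the decay of a microRNA, had a change of 0.36 (adjusted p = 0.343) and of 0.64 without it (adjusted p = 0.0295).

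Without control replicate 3, 14 members passed with NFE2L1, 12 higher and 2 lower, 41.2% beside 35.8% of all genes. The higher ones were CYTOR, SNHG15, SNHG5, SNHG16, PVT1, MIR22HG, NORAD, TUG1, OIP5-AS1, SNHG14, SNHG26 and SNHG4, 35.3% of the members beside 30.1% of all genes, and the lower ones, DANCR and H19, 5.88% beside 5.69%. With NFE2L1DC 6 passed, 17.6% beside 24.4%. NORAD, SNHG14, SNHG15, SNHG16 and SNHG4 were higher, 14.7% beside 20.1%, and H19 was lower, 2.94% beside 4.34%. In the direct comparison DANCR passed, 2.94% beside 1.04%, lower with NFE2L1 as were 0.127% of all genes, while 0.914% were higher. After a correction for GC content and transcript length within each library, 5 members passed with NFE2L1, 14.7% beside 12.9% of all genes, namely CYTOR, SNHG15, PVT1 and SNHG17 higher and DANCR lower. With 3 controls, a library that stands apart and the true spread of the group cannot be told apart.

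**Figure D5:**
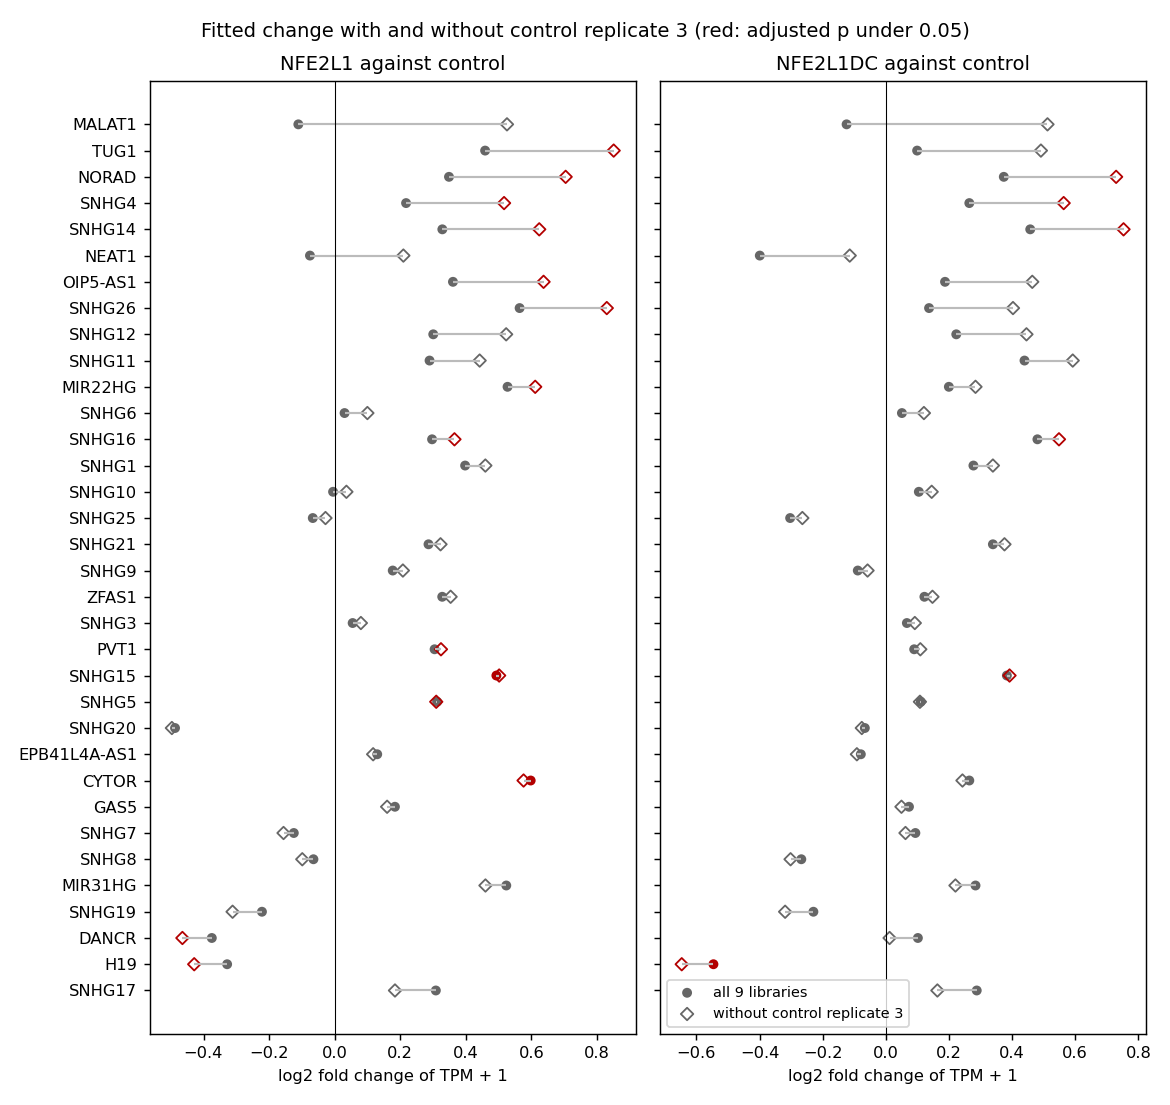
Fitted log2 changes of TPM + 1 of the 34 tested members with all 9 libraries (filled) and without control replicate 3 (open), for each line against control, ordered by how far control replicate 3 lay from the other controls. Red marks an adjusted p under 0.05. The upper rows, led by MALAT1, TUG1 and NORAD, move to the right without that library, and H19 and DANCR at the foot move to the left.

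Of the lowest members, SNHG20 had 1 library apart from the rest, chosen for mention after its values were seen. It was at 17.9, 15.6 and 4.09 TPM with NFE2L1, and between 13.3 and 17.96 TPM in the 6 libraries of the other groups. Its change of -0.49 with NFE2L1 had the second-widest interval of the members after MALAT1, from -1.42 to 0.44. Without NFE2L1 replicate 3 the SNHG20 change was 0.11 (adjusted p = 0.679 in limma). SNHG25, SNHG10, SNHG11, EPB41L4A-AS1 and SNHG21 lay between 5.45 and 16.2 TPM, and passed no test. Of these, SNHG21 had groups without overlap in the NFE2L1 comparison, at 6.04 ± 0.341 TPM in control and 7.62 ± 1.01 TPM with NFE2L1 (0.29, limma adjusted p = 0.360).

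Many members share their start region or their bases with a coding gene. Of the 38 rows 17 overlap a protein-coding gene, mostly on the other strand, and since the labels do not give the strandedness of the libraries, reads from such pairs cannot be told apart. ZFAS1 starts 248 bases from ZNFX1, an RNA helicase gene on the other strand. ZNFX1 went from 19.9 ± 2.41 to 37.7 ± 3.94 TPM with NFE2L1 and rose (0.89, limma adjusted p = 0.00814), while ZFAS1 itself had a log2 change of 0.33 that did not pass. SNHG3 overlaps RCC1 on the same strand, the gene of a nuclear exchange factor, which rose from 141 ± 6.67 to 170 ± 9.41 TPM (0.26, adjusted p = 0.0460) beside 0.05 for SNHG3. MIR22HG overlaps WDR81 on the other strand, which rose by 0.53 (adjusted p = 0.0298). SNHG1 and SLC3A2, the heavy chain of an amino acid transporter, start 188 bases apart, and SLC3A2 was at 670 ± 131, 782 ± 18.7 and 658 ± 75.0 TPM and did not pass. The gene nearest to CYTOR, PLGLB2, was at a mean of at most 0.0313 TPM, that nearest to SNHG15, MYO1G, at most 0.103 TPM, and that nearest to H19, MRPL23, at 137 ± 22.04, 136 ± 16.7 and 147 ± 17.1 TPM.

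Promoter windows were searched for motifs because NFE2L1 belongs to a family that binds the antioxidant response element, whose core was searched as TGACNNNGC. RefSeq windows were matched for 31 member genes, 34 windows in all, and both strands were read. The core was in 4 of the 34 windows, 11.8% of them, and in 13.3% of all 35116 windows. The 5 matches are shown with 10 bases on either side, 5′ to 3′ on the strand of the gene (GRCh38.p14) and with the core in capitals, in either orientation. They lie at chr5:139274014-139274042 (SNHG4, plus strand), chr11:65497497-65497525 and chr11:65497677-65497705 (MALAT1, plus strand), chr17:77088640-77088668 (SNHG20, plus strand) and chr20:36050950-36050978 (NORAD, minus strand).
SNHG4: cctttcctagGCGGGGTCAagggccccgc
MALAT1, first match: gggcgcgcgtGCGCAGTCAcgcgctgcgc
MALAT1, second match: cgtttgtcccTGACGCAGCcccaccggtt
SNHG20: cggaagttgcTGACGGAGCtacttccgcc
NORAD: gcagagaactGCCAAGTCAgttccggtcc
None of the 4 genes with this form of the core was called in a comparison with all 9 libraries. Without control replicate 3, SNHG4 and NORAD were higher and passed in both lines, and MALAT1 and SNHG20 passed in neither. Of all genes, 30.1% with NFE2L1 and 20.1% with NFE2L1DC were then higher and passed. Forms with another letter in place of its C were not counted. The CYTOR window printed above holds TGAGTCAGC, which has a G there. The E-box CACGTG was in 4 member windows (7.26% of all windows hold it), the TATA box TATAAA in 8 (11.5%) and the ETS site CCGGAAGT in 2 (4.14%), and no matches of different motifs overlapped in a member window. A C followed by at least 4 C or T, beginning within 10 bases of the annotated start, was in 18 of the 34 member windows and in 33.5% of all windows. Some windows are of the same gene, MEG3 with 3 overlapping ones and MALAT1 with 2, so the TATA matches were in 6 genes and the pyrimidine runs in 17 of the 31. The GAS5 window (chr1:173868996-173869295, minus strand) held no such run. The GENCODE 29 start of GAS5, at 173868882, lies outside that window and was not searched. Such a run is the form of an oligopyrimidine start, and annotated starts can lie some bases from the real ones.

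The RNAs of the proteins that make snoRNAs into particles rose in part, and protein was not measured. Of 20 genes for snoRNP proteins and their assembly factors, all tested, 6 rose with NFE2L1 and 2 with NFE2L1DC, and none fell. Of all genes 7.83% and 2.06% rose, and 2.57% and 1.54% fell. The counts that rose were 13 and 11 without control replicate 3, where 30.1% and 20.1% of all genes rose and 5.69% and 4.34% fell. These shares of all genes apply to the lists below as well. At an unadjusted p under 0.05 in limma's test the shares of all genes were 30.4% with NFE2L1, 21.7% with NFE2L1DC and 8.19% in the direct comparison. NOP56, a core protein of the methylation-guiding particle and itself a snoRNA host, went from 374 ± 7.27 to 512 ± 2.05 TPM (0.45, limma adjusted p = 0.00167). RUVBL1, a helicase of the assembly complex, rose in both lines (0.45 and 0.40, adjusted p = 0.00902 and 0.0298), as did NOLC1, a chaperone of snoRNPs (0.92 and 0.79, adjusted p = 0.0138 and 0.0440). NOP10, a protein of the pseudouridylation-guiding particle, went from 440 ± 8.25 to 550 ± 25.9 TPM with NFE2L1 (0.32, adjusted p = 0.0104). The list's medians were 0.36 and 0.24 beside 0.17 and 0.12 for all genes. FBL, the methyltransferase, was at 417 ± 22.6, 419 ± 24.9 and 443 ± 23.9 TPM and did not pass.

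Of 43 protein-coding snoRNA hosts, 4 rose with NFE2L1, and the ribosomal protein genes RPL13A and RPL7A were among those that fell. None passed in limma's test with NFE2L1DC. At an unadjusted p under 0.05 there were 19 of the 43 with NFE2L1 and 15 with NFE2L1DC. In the fit without control replicate 3, 11 rose and 12 fell with NFE2L1, and 9 rose and 10 fell with NFE2L1DC. The 4 that rose were NOP56, HSPA8, DKC1 and NCL. RPL13A went from 4902 ± 265 to 3894 ± 148 TPM (-0.33, limma adjusted p = 0.0107) and HSPA8, a chaperone, from 1484 ± 298 to 2246 ± 37.3 TPM (0.62, adjusted p = 0.0166). The medians were 0.00 and -0.01. Of 19 nonsense-mediated decay factors tested, RNPS1, DHX34, MAGOH and RBM8A rose with NFE2L1, the first 2 also rose with NFE2L1DC, and none fell (medians 0.28 and 0.27). The fit without control replicate 3 had 11 and 10 that rose. RNPS1 went from 174 ± 2.13 to 219 ± 5.82 and 215 ± 7.24 TPM, and UPF1, the central helicase of that pathway, had changes of 0.19 and 0.11 that did not pass. Of 10 regulators of the translation of oligopyrimidine mRNAs, RHEB and LARP1 rose with NFE2L1 and EIF4EBP1 rose with NFE2L1DC (medians 0.21 and 0.23), and 4 and 3 rose without control replicate 3.

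Of 16 genes for paraspeckle and nuclear speckle proteins, SFPQ, SRSF2 and SRSF1 rose with NFE2L1, by 0.54, 0.57 and 0.75 (limma adjusted p = 0.0430, 0.0448 and 0.0456). None passed with NFE2L1DC (medians 0.40 and 0.35). At an unadjusted p under 0.05 there were 11 with NFE2L1 and 5 with NFE2L1DC. Of the 16, 10 and 8 rose without control replicate 3. NONO, another core paraspeckle protein, had changes of 0.08 and -0.07 that did not pass. Of 15 mitochondrially encoded genes, 6 fell with NFE2L1 and MT-ND3 fell with NFE2L1DC (medians -0.25 and -0.08), as many as without control replicate 3. Of 8 rows of RNAs that depend on library preparation 5 were tested, such as RN7SK and RMRP. None passed limma's test, with 1 and 0 at an unadjusted p under 0.05 against control and all 5 in the direct comparison, lower with NFE2L1. Of these 5, 1 fell with NFE2L1 without control replicate 3. Their medians of -0.86 and 0.56 lay on opposite sides, and they summed to between 52.5 and 148 TPM in control, 28.98 and 80.1 TPM with NFE2L1 and 83.8 and 240 TPM with NFE2L1DC. No gene of any of these lists passed in the direct comparison, where 13 of the 141 tested were at an unadjusted p under 0.05. Their part in the members' results was not tested.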

How the data were processed

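RNA was sequenced from 9 libraries, 3 in each of 3 groups. The authors deposited 1 table of TPM values, per the labels. Every column summed to nearly the same total, as TPM does. The submitters' processing notes name CASAVA and GRCh38. The quantifier, the annotation, the strandedness and the depth were not available from the labels or the file header. Gene IDs were matched to GENCODE 29 (57836 of 58174), and promoter windows came from RefSeq (GRCh38.p14).

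Genes at 1 TPM or more in at least 3 libraries (14118) entered limma 3.58.1 in R 4.3.3 as log2(TPM + 1), with 1 mean per group, an abundance trend, 3 contrasts and two-sided moderated tests. P-values were adjusted by Benjamini and Hochberg over all genes tested, and 0.05 was the threshold. The code was tested on simulated data. Alternatives were a pseudocount of 0.1, other filters, median-of-ratios scaling, a correction for GC content and length, a replicate block, no trend, pairs of groups alone and leaving out each library. Near-identical copies were searched with blastn 2.17.0.

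The members and gene lists were chosen with earlier results of these data known. Members called in any comparison and GAS5, SNHG1, MALAT1, NEAT1 and H19 are given by library. Further members got values by library where control replicate 3 or the direct comparison turned on them, and DANCR, NORAD, TUG1 and SNHG20 were chosen so after their values were seen. Up to 4 called genes were named per list. FBL, UPF1, NONO and MYC were added after their values were seen. The 9 libraries held no identical columns, and their log2 values correlated between 0.9673 and 0.9875. Results for some genes are not reported here.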

Additional observations from a re-analysis of the deposited data

How the results depend on the processing

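With all genes, 947 passed for NFE2L1 against control without the filter on low values, and 848 when these groups alone were fitted. For NFE2L1DC against control 293 passed under median-of-ratios scaling, 313 without the abundance trend and 101 when these groups alone were fitted. For the direct comparison 73 passed under that scaling. Leaving out 1 library gave 510 to 5055, 115 to 3444 and 49 to 147 genes in the 3 comparisons, with the highest count in each without control replicate 3. The members that passed were 1 to 14, 0 to 6 and 0 to 1.

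For NFE2L1 against control 0 members passed under the scaling, where 7.23% of all genes did, and 5 after the GC and length correction (14.7% beside 12.9%). For NFE2L1DC against control 0 passed without the filter, under the scaling, without the trend and with these groups alone, since H19 lost its call there (adjusted p = 0.0990, 0.0817, 0.0833 and 0.109 in limma).

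The replicate numbers showed no clear pairing of the libraries. After each gene's group mean was subtracted from the log2 values, 1 of 9 same-numbered pairs correlated above 0.1, from -0.189 to 0.109. Differently numbered pairs ranged from -0.182 to 0.276, the highest for control replicate 3 with NFE2L1DC replicate 1. With 3 libraries a group, these correlations cannot decide whether a weak pairing exists. With the replicate block 872, 198 and 58 genes passed, and 0 members in the NFE2L1DC comparison.

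Under the scaling the sign turned for 3, 7 and 3 of the 34 members in the 3 comparisons, in the order NFE2L1 against control, NFE2L1DC against control and direct. These included, with NFE2L1DC, GAS5 (-0.038), DANCR (-0.0093), PVT1 (-0.020) and SNHG7 (-0.017), and in the direct comparison MALAT1 (-0.040) and SNHG17 (-0.045). After the GC and length correction, with or without the replicate block, it turned for 5, 6 and 1, among them SNHG7 with NFE2L1 (0.052), GAS5 with NFE2L1DC (-0.038) and MALAT1 in the direct comparison (-0.013).

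Leaving out 1 library turned the sign of 7, 9 and 12 members. It moved MALAT1 from -0.46 to 0.53 with NFE2L1, from -0.48 to 0.51 with NFE2L1DC and from -0.16 to 0.16 in the direct comparison. SNHG20 ranged from -0.83 to 0.11 with NFE2L1 and NEAT1 from -0.22 to 0.21. In the direct comparison SNHG1 ranged from -0.050 to 0.25 and SNHG17 from -0.015 to 0.074. None of the called members turned its sign in the comparison it was called in. The cause was not tested.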
